A study of Mus musculus with 2 samples.

Results

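The interleukin 6 family was followed in mouse ATDC5 cells, a chondrocyte cell line, by 10 genes listed by symbol: the ligand genes Il6, Il11, Lif, Clcf1 and Ctf1 and the receptor genes Il6st, Lifr, Osmr, Il6ra and Il11ra1. They were matched by gene symbol through the RefSeq accession of each array probe, and these 10 genes, read by 12 probes, were taken from 20433 genes with a symbol on the array. The HES1 sample was a stable ATDC5 line labelled as overexpressing HES1, a transcriptional repressor downstream of Notch receptors. The GFP sample was a stable ATDC5 line labelled as overexpressing GFP, a fluorescent protein, and served as the control. Both lines had been made by lentiviral transduction and grown for 3 days as monolayers on 60 mm dishes, and total RNA of each was hybridised to 1 single-colour Agilent array. The promoter of the transgene and whether a line was a clone or a pool are not given in the sources used here.

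Each line had a single array and hence no replicate, so no test was run and no difference below has a p-value or a replicate check. Signals are in scanner units, scaled so that the 75th percentile of each array is 1057.2, and they compare the arrays for 1 probe, not 1 gene with another. A gene is called higher or lower where its signals differed at least 2-fold, which is 1 on the log2 scale. The error given with a difference is that of the scanner's error model and leaves out differences between cultures. The arrays detected similar shares of spots, 56.6% of spots well above background on the HES1 array and 54.6% on the GFP array. The mouse Hes1 probe read 10.3 in the HES1 line and 10.2 in the GFP line, neither value above background, so it checked neither label, and whether it lies in the transgene is not given in the sources used here. Of 10 chondrocyte markers, 6 were well above background on both arrays, among them Col2a1, Acan and Sox9, while the matrix genes Matn1, Matn3 and Hapln1 and the secreted factor gene Cnmd were not above it on either. The summed signal of the chondrocyte markers was 12030 in the HES1 line and 19918 in the GFP line. That sum was mostly Col2a1, at 7379 in the HES1 line and 13796 in the GFP line. Of the 6 measured markers, 0 passed 2-fold upward and 0 downward, against 11.1% and 4.95% of all genes. Their median log2 difference was -0.63, against -0.06 over all genes.

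Cytokines of this family share the signal-transducing receptor chain gp130, the product of Il6st. Interleukin 6 and interleukin 11 first bind a receptor of their own and then pair gp130 with itself. Leukaemia inhibitory factor and cardiotrophin 1 instead pair gp130 with the LIF receptor. The bound receptors activate JAK kinases, which phosphorylate STAT3, and STAT3 induces SOCS3, an inhibitor that closes the loop. In cartilage, interleukin 6 is known for its role in inflammation and in the loss of matrix.

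The ligand genes Il6 and Il11 were higher in the HES1 line, Il11 by a margin close to 2-fold. No receptor gene among the 10 genes passed 2-fold. Of the 10 genes, 9 were well above background, all of them on both arrays, and Osmr was not above it on either. At least 2-fold higher were 2 of the 9 measured genes, Il6 and Il11, where 11.1% of all 14273 genes measured were that much higher. At least 2-fold lower were 0 of the 9, where 4.95% of all genes were, and in either direction 16% of all genes passed. Restricted to genes above background on both arrays, as all 9 were, 7.04% of genes were higher and 4.41% lower, 11.5% together. The median log2 difference was 0.11 over the 9 genes and -0.06 over all genes. The spread within the family was wide, from -0.92 for Il11ra1 to 7.82 for Il6.

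**Figure D1:**
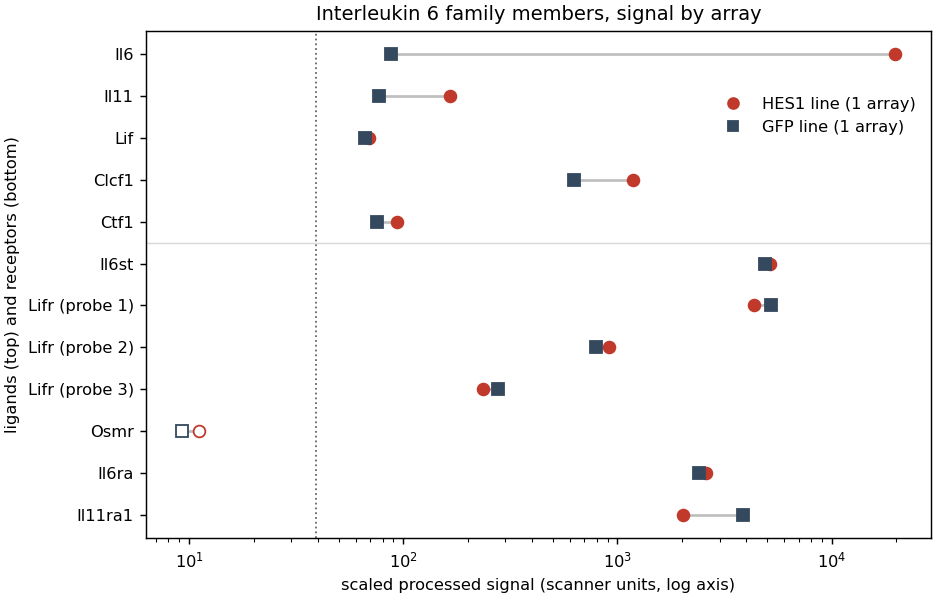
Scaled processed signal (log axis) of each probe of the 10 genes in the HES1 line (circles) and the GFP line (squares), 1 array each, with open symbols for probes not well above background and a dotted line at 39.0, the lowest signal well above background on the HES1 array. Il6 stands at 19729 in the HES1 line and 87.5 in the GFP line, while the symbols of Il6st and Il6ra nearly coincide.

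Il6 encodes interleukin 6 itself, the founding cytokine of the family. Its probe had 2 spots on each array, with 21147 and 18406 in the HES1 line and 88.2 and 86.9 in the GFP line. The spots of the HES1 array lay far above those of the GFP array, and the values did not overlap. The mean signals, 19729 and 87.5, gave a 225-fold difference, which is 7.82 on the log2 scale with an error of 0.26. The 2 spots gave 7.73 and 7.91. Under a normexp background correction of the median spot signals with quantile normalization the log2 difference was 6.40. Among the 13073 genes measured on both arrays, Il6 ranked 15th from the highest difference. In the GFP line its signal was well above background, where the lowest signal that counted as such was 38.1.

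The promoter of Il6 is printed because Il6 held the largest difference of the family, and those of Il11 and Lif because Il11 also passed 2-fold while Lif, a ligand gene of the same family, did not. Each is the 250 bases before a RefSeq transcription start on the GRCm38.p6 build, written along the strand of the gene. They lie at chr5:30012864-30013113 on the plus strand for Il6, at chr7:4782858-4783107 and chr7:4778142-4778391 on the minus strand for the 2 starts of Il11, and at chr11:4257318-4257567 on the plus strand for Lif. Capitals mark matches to the motifs of inducible factors searched on both strands: the kappaB site of NF-kappaB (GGGNNTTTCC), the C/EBP site (TTNNGNAA), the cAMP response element (TGACGTCA), the AP-1 site (TGANTCA), the gamma-activated site of STATs (TTCNNNGAA) and the core of the interferon-stimulated response element (GAAANNGAAA).
Il6: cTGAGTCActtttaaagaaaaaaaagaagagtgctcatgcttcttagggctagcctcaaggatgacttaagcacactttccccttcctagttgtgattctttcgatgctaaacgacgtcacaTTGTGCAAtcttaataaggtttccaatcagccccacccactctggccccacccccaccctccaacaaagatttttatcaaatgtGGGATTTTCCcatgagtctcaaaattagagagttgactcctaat
Il11 start 1: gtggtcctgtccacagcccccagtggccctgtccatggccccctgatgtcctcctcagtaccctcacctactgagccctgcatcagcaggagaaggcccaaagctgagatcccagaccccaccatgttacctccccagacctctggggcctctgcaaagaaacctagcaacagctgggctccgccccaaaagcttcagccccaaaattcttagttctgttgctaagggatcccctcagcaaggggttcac
Il11 start 2: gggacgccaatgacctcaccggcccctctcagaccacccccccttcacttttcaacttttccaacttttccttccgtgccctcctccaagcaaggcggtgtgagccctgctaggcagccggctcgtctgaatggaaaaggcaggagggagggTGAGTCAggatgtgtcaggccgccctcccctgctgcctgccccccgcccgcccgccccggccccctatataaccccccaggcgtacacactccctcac
Lif: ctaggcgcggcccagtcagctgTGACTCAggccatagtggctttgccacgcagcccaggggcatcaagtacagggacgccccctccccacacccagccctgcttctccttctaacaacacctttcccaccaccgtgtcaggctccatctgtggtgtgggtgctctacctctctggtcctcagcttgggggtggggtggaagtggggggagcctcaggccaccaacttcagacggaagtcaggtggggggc

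The Il6 promoter held 3 of these matches. The kappaB site lay at -44 to -35 from the start, the C/EBP site at -128 to -121 and the AP-1 site at -249 to -243. Of all 32851 RefSeq windows of the same length, 1.41% held the kappaB motif, 36.8% the C/EBP motif and 6.75% the AP-1 motif. Il6 was the only gene among the 9 family genes with a window in the table (12 windows, Clcf1 has no entry) to hold the kappaB motif. An AP-1 match stood at -98 to -92 of the second Il11 start and at -228 to -222 of Lif, so that motif was present before a gene that passed 2-fold and before a gene that did not. The first Il11 start held none of the marked motifs. No family window held an exact match to the cAMP response element, the gamma-activated site or the interferon-stimulated core. Of all windows, 1.55%, 7.02% and 2.98% held these. The letters cgacgtca before the C/EBP match of Il6 differ from the cAMP response element in their opening letter only and were not counted, since inexact matches were not searched for. The N-box (CACNAG), a motif bound by HES proteins, was found in the windows of Ctf1 and Il6ra and in 36.7% of all windows. The general E-box (CANNTG) was found in 9 of the 12 family windows, Il6 among them, and in 66.2% of all windows. The single overlap between different motifs in these windows was that of a C/EBP match and an E-box before Il6ra. A match describes the letters in the window and no more.

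**Figure D2:**
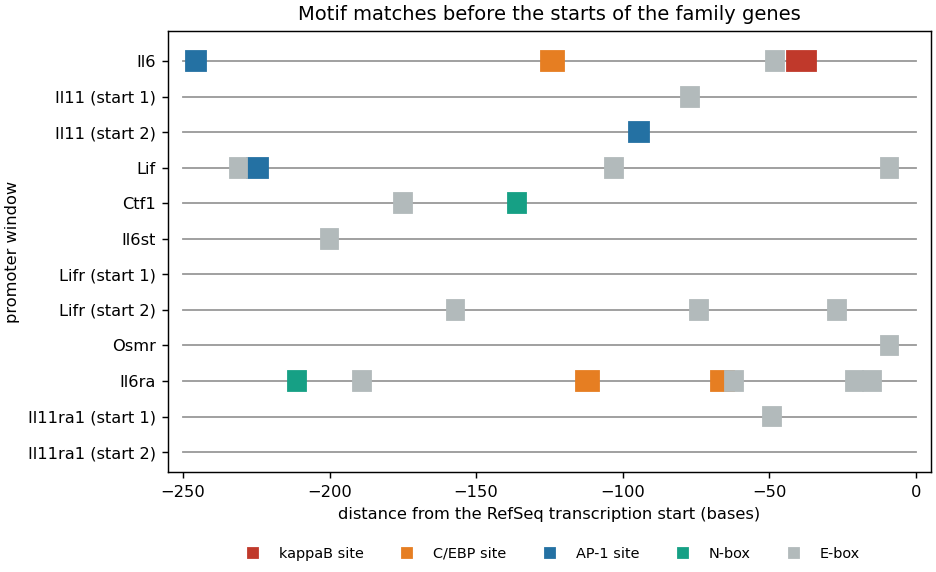
Positions of motif matches (coloured blocks) in the 250 bases before each RefSeq start of the family genes, with distance from the start in bases on the horizontal axis and 1 row per window. The kappaB block appears in the Il6 row only, at -44 to -35, and AP-1 blocks appear in the rows of Il6, Lif and the second start of Il11.

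Il11 encodes interleukin 11, which acts on bone and stromal cells. It had 165 in the HES1 line and 76.8 in the GFP line, a 2.15-fold difference (1.11 on the log2 scale, error 0.27). The interval of 1 error around it ran from 0.83 to 1.38 and so included the 2-fold line. Il11 was at 0.99 under quantile normalization and at 0.47 under the normexp correction, below 2-fold in both.

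Clcf1 encodes cardiotrophin-like cytokine factor 1, which signals through receptor chains that include gp130 and the LIF receptor. It had 1184 in the HES1 line and 624 in the GFP line, a 1.90-fold difference that stayed within 2-fold (0.92 on the log2 scale, error 0.21). With the trend of differences over mean signal removed by loess it was 1.07, past 2-fold. Of all genes measured on both arrays, 7.77% had a higher difference than Clcf1 and 6.18% a higher one than Il11.

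Lif encodes leukaemia inhibitory factor. It had 69.1 in the HES1 line and 66.6 in the GFP line, a log2 difference of 0.05 with an error of 0.38, and under quantile normalization its sign turned, to -0.13. Ctf1 encodes cardiotrophin 1 and was read by 10 spots on each array. They ran from 68.2 to 117 with a median of 97.1 in the HES1 line and from 64.4 to 90.8 with a median of 74.3 in the GFP line. The spots of the arrays overlapped, and the log2 difference of 0.31 was no larger than its error of 0.31. That error is the mean error of a spot and is not reduced for the 10 spots averaged. Spot by spot, 9 of the 10 were higher on the HES1 array, and the SD of their differences was 0.24. The SD between spots of one array was 0.24 on the HES1 array and 0.14 on the GFP array, on the log2 scale. Both genes lay low on the scanner's scale on both arrays.

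Among the receptor genes, Il11ra1 had the largest difference. It encodes the receptor chain that binds interleukin 11, and it had 2029 in the HES1 line and 3846 in the GFP line, a 1.90-fold lower signal that stayed within 2-fold (-0.92 on the log2 scale, error 0.20). The value was -0.90 under quantile normalization, -0.89 under median scaling, -0.78 under the loess fit and -0.92 under the normexp correction. The other alternatives could not move it, since 1 spot of 1 probe, detected on both arrays, read this gene. Il11 and the gene of its receptor thus lay on opposite sides of 0. Il11ra1 has a close paralog, Il11ra2, for which no probe was annotated, and a probe may read both.

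Il6st, the gene of gp130, had 5171 in the HES1 line and 4899 in the GFP line, a log2 difference of 0.08 with an error of 0.20. Il6ra, the gene of the chain that binds interleukin 6, had 2591 in the HES1 line and 2409 in the GFP line (0.11, error 0.20). Both receptor genes for interleukin 6 were therefore well above background on both arrays and differed by less than their technical error. Lifr, the gene of the LIF receptor, was read by 3 probes, with 4324, 912 and 236 in the HES1 line and 5197, 792 and 277 in the GFP line. The brightest and the dimmest probe, both of accession NM_013584, gave -0.27 and -0.23, and the middle one, of NM_001113386, gave 0.20, each with an error of 0.20 to 0.21. The Lifr probes thus disagreed in sign at sizes near their error. Osmr, the gene of the oncostatin M receptor chain, had 11.1 in the HES1 line and 9.28 in the GFP line and was not well above background in either, so no fold is given.

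**Figure D3:**
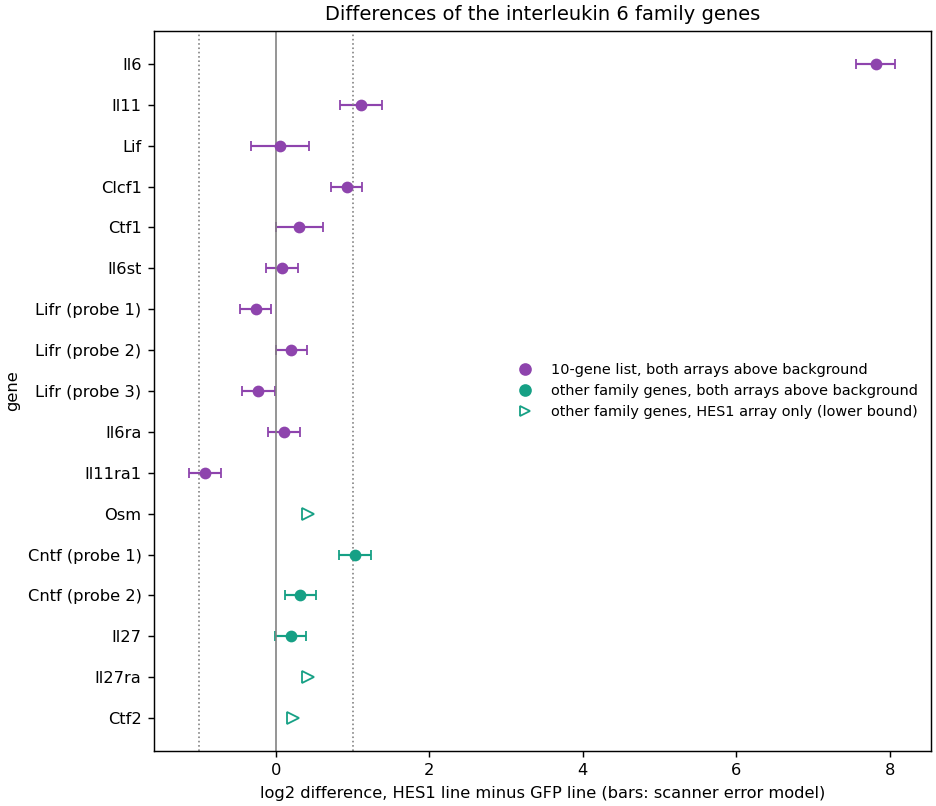
Log2 difference, HES1 line minus GFP line, for each measured probe of the 10 genes (purple) and of the other family genes (green), with bars for the scanner's error model, open triangles for lower bounds and dotted lines at 2-fold. Il6 stands alone at 7.82, and all other points lie between -0.92 and 1.11.

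Placed among all genes, the family split into Il6 and the rest. Of the genes measured on both arrays, 0.107% had a difference larger in size than that of Il6, 9.32% than that of Il11, 13.3% than that of Clcf1 and 13.3% than that of Il11ra1. For Ctf1 this share was 52.1%, for Lifr 57.7%, for Il6ra 82.3%, for Il6st 86.5% and for Lif 91.0%. Most genes on the array therefore differed more than Il6st, Il6ra and Lif did.

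**Figure D4:**
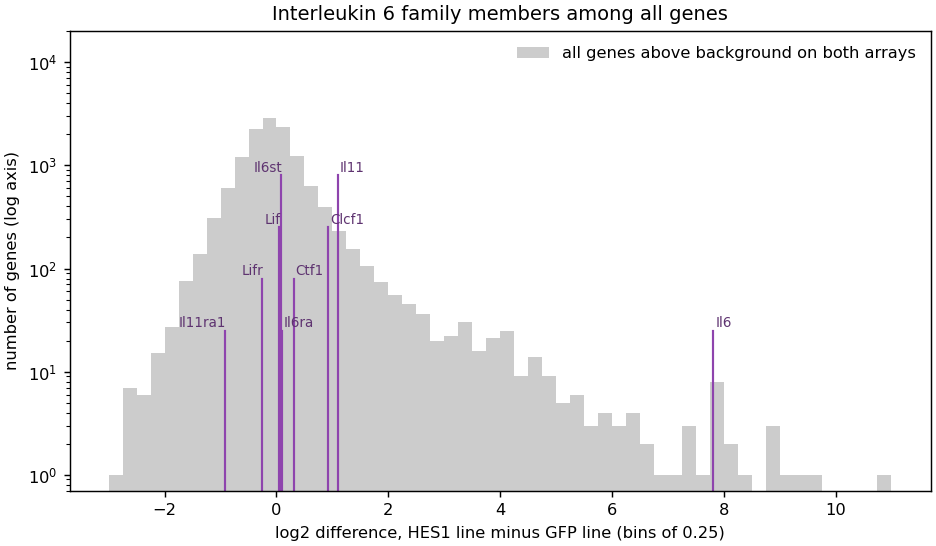
Number of genes (log axis) by log2 difference, HES1 line minus GFP line, in bins of 0.25 over the 13073 genes well above background on both arrays, with purple lines at the 9 measured family genes. Il6 at 7.82 lies in the far right tail, and the other 8 lie between -0.92 and 1.11.

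The 5 genes whose log2 difference was nearest to that of Il6 over these 2 samples were Phf11b (7.81), Isg15 (7.80), Zbp1 (7.85), Ifit3 (7.75) and Usp18 (7.91), by the absolute gap in the difference. Phf11b had 17561 in the HES1 line and 78.3 in the GFP line, and Zbp1 had 20762 in the HES1 line and 90.0 in the GFP line. Isg15 and Usp18 encode an interferon-induced ubiquitin-like modifier and the protease that removes it, Zbp1 a sensor of left-handed nucleic acid and Ifit3 an interferon-induced antiviral protein. With 2 arrays this likeness is a single number per gene.

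Beyond the 10 genes, 10 other family genes were listed, of which 5 were measured. By the signals as read, 3 of those 5 were at least 2-fold higher in the HES1 line and 0 lower. Of all genes, 11.1% were higher and 4.95% lower by that count. The 3 were Cntf, Osm and Il27ra. For Osm and Il27ra the GFP-line signal was not well above background, and their lower bounds do not reach 2-fold. When genes detected on 1 array took their lower bound, Cntf alone was at least 2-fold higher. With that bound 9.49% of all genes were higher, 4.47% lower and 14% either. Cntf, the ciliary neurotrophic factor gene, had 4374 in the HES1 line and 2139 in the GFP line by its brighter probe (1.03 on the log2 scale, error 0.20), and 1029 against 824 by its other probe (0.32). In the RefSeq table the Cntf gene lies inside Gm44505, a noncoding gene, and a Cntf probe may read transcripts of both. Osm, the oncostatin M gene, had 51.0 in the HES1 line and 12.4, a value below the detection call, in the GFP line, at least 1.34-fold higher. Il27ra, a receptor gene for interleukin 27, had 51.2 in the HES1 line and an undetected 9.92 in the GFP line, also at least 1.34-fold higher.

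Il27, the gene of an interleukin 27 subunit, had 573 in the HES1 line and 501 in the GFP line (0.19, error 0.21). Ctf2, a cardiotrophin gene of the mouse, had 47.6 in the HES1 line and 40.8, not well above background, in the GFP line. Cntfr, Ebi3, Il31 and Il31ra were not well above background on either array, and no probe was annotated to Il11ra2. Of the genes for the receptor pairings of this family, Osmr, Cntfr and Il31ra were thus not measured.

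Downstream of gp130, Stat3 was higher by a margin close to 2-fold. It was the only 1 of 17 listed kinases, STATs and adaptors measured to pass 2-fold upward and 0 passed it downward, against 11.1% and 4.95% of all genes. The median was -0.34, against -0.06 over all genes. Stat3, the main transcription factor of this pathway, had 12367 in the HES1 line and 6054 in the GFP line, a 2.04-fold difference (1.03, error 0.20), and its second probe gave 0.93, within 2-fold. With the median over both probes Stat3 did not pass, so that 0 of the 17 were higher. The kinase genes Jak1, Jak2 and Tyk2 had log2 differences of 0.03, -0.42 and -0.14.

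Among 10 measured feedback inhibitors 1 passed 2-fold upward and 0 downward, a share near the 11.1% of all genes that were higher (median 0.17). It was Socs1, an inhibitor of JAK kinases, with 5301 in the HES1 line and 936 in the GFP line (5.66-fold). Socs3, which binds gp130 itself, had 7398 in the HES1 line and 4725 in the GFP line, a log2 difference of 0.65 that stayed within 2-fold with an error of 0.20.

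Of 18 measured genes known to respond to gp130 and STAT3, 5 were at least 2-fold higher and 1 was lower, against 11.1% and 4.95% of all genes, and 12 lay within 2-fold, with a median of 0.87. After the loess fit 10 were higher, with 1723 of all genes higher, against 1582 without the fit. Under the normexp correction 3 were higher, with 850 of all genes higher. The chemokine gene Ccl2 had 32274 in the HES1 line and 768 in the GFP line, a 42.0-fold difference. Fos, an AP-1 subunit, was 11.9-fold higher (691 and 57.8), and Bcl3, a coactivator related to the NF-kappaB inhibitors, 2.69-fold higher (206 and 76.6). Il4ra and Vegfa were the others, at 2.07-fold and 2.03-fold. Birc5, which encodes the mitotic protein survivin, was 2.62-fold lower (30774 and 80498). The acute phase genes Saa3 and Lbp were not well above background on either array, while Lcn2 and Hp of the same list were detected. Lcn2 had 146 in the HES1 line and 105 in the GFP line (0.48, error 0.27). Hp had 64.6 in the HES1 line and 44.8, not well above background, in the GFP line. Many of these genes also respond to other signals, and the list does not separate them.

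Several genes of sensors and factors known to act on Il6 transcription, by raising or by restraining it, were higher. The counts do not separate these directions. Of 17 measured, 7 passed 2-fold upward and 0 downward, against 11.1% and 4.95% of all genes, and their median was 0.82. Tlr3, the endosomal receptor for double-stranded RNA, had 4131 in the HES1 line and 79.9 in the GFP line, a 51.7-fold difference. Atf3 was 10.6-fold higher (7901 and 746), Fosl1, an AP-1 subunit, 9.59-fold (6185 and 645) and Irf1 5.77-fold (43746 and 7580). A second Irf1 probe was undetected on both arrays. The NF-kappaB subunit genes Rela and Nfkb1 lay at -0.24 and -0.26, while Nfkbiz, a nuclear cofactor that Il6 transcription needs, lay at 0.82, within 2-fold.

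Among 10 measured genes of proteins known to control cytokine mRNAs such as that of Il6, 3 passed 2-fold upward and 0 downward, against 11.1% and 4.95% of all genes (median 0.17). Under the normexp correction 1 did, with the count over all genes at 850, against 1582 without it. Arid5a, which stabilises Il6 mRNA, had 10946 in the HES1 line and 2270 in the GFP line (4.82-fold). Zc3h12a, the endonuclease Regnase-1 that cleaves Il6 mRNA, had 310 in the HES1 line and 149 in the GFP line (2.08-fold). Zfp36, tristetraprolin, which also destabilises cytokine mRNAs, had 206 in the HES1 line and an undetected 14.0 in the GFP line, at least 5.41-fold higher. Genes of a stabiliser and of destabilisers were thus higher side by side. Of 6 shedding and sorting genes 0 were past 2-fold upward and 0 downward, against 11.1% and 4.95% of all genes. Their median was -0.54, against -0.06 over all genes. The largest difference was that of Sort1, a sorting receptor gene, at -0.88 (106 in the HES1 line and 195 in the GFP line), and its second probe gave -0.32. Adam17, the sheddase gene for the interleukin 6 receptor, lay at -0.70 by its brighter probe and 0.06 by the other.

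**Figure D5:**
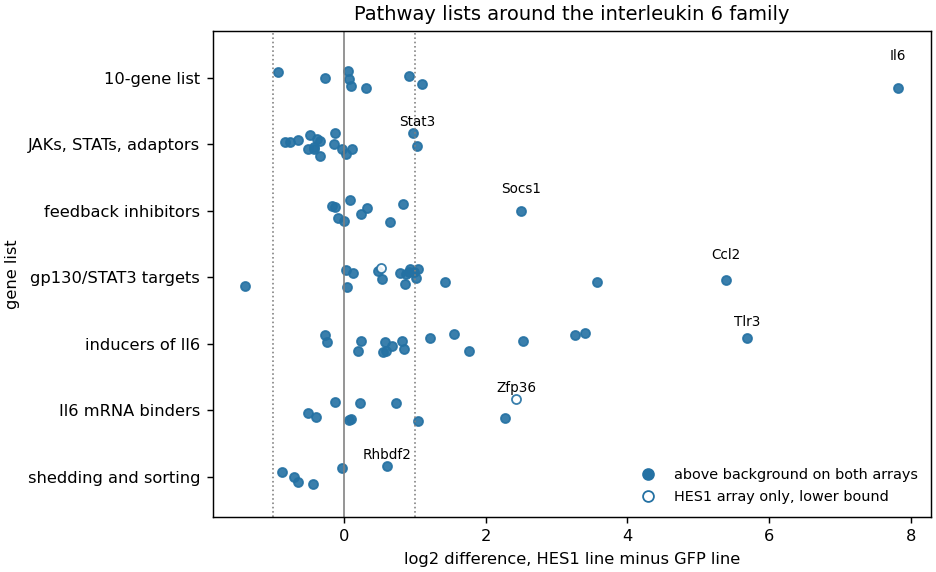
Log2 difference, HES1 line minus GFP line, of each measured gene (points) in the 10-gene list and 6 pathway lists, with open points for lower bounds of genes seen on the HES1 array only, dotted lines at 2-fold and the gene furthest right of each list named. In the row labelled inducers of Il6, which also holds genes that restrain Il6 transcription, 7 of 17 points lie past 2-fold to the right and 0 to the left.

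Markers of cell types that secrete interleukin 6 were set beside these values. Of 9 probed macrophage markers, 5 were well above background in the HES1 line and 4 in the GFP line, with summed signals of 25643 and 50493. The sum was mostly Itgam, at 22759 in the HES1 line and 47669 in the GFP line by its brightest probe, while its other probes lay between 67.4 and 93.6 on both arrays. Csf1r had 2030 in the HES1 line and 1978 in the GFP line, Cd14 had 499 and 542, and Fcer1g had 219 and 197, all above background. The other 4 genes, Adgre1, Lyz2, Tyrobp and Laptm5, were not well above background on either array, and Ptprc had 47.8 in the HES1 line and 25.2, not well above background, in the GFP line. Of 5 endothelial markers, 2 were above background in each line, with summed signals of 8899 in the HES1 line and 8567 in the GFP line. That sum was mostly the brighter probe of Kdr, a receptor for vascular endothelial growth factor, at 8691 in the HES1 line and 8354 in the GFP line. The probes of Kdr disagreed, since the other one, with 9 spots, had 480 in the HES1 line and an undetected 10.8 in the GFP line, at least 12.6-fold higher. Cdh5, Tek and Emcn were undetected on both arrays. Of 5 lymphoid markers, 2 were above background in the HES1 line and 1 in the GFP line, with summed signals of 1254 and 1089. Of 5 probed osteoblast markers, all were above background in both lines, with summed signals of 201780 in the HES1 line and 234989 in the GFP line, of which Col1a1 made up 193317 and 219155. The median log2 difference of the 5 was -0.83, against -0.06 over all genes, and 2 passed 2-fold downward, where 4.95% of all genes did. They were Ibsp at -1.66 (-1.48 by its other probe) and the transcription factor gene Sp7 at -1.41. In RNA of a whole culture, fewer cells of a type and less RNA per cell cannot be told apart. The part of such cells in the Il6 difference was not tested.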

How the data were processed

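Total RNA of 2 ATDC5 lines, 1 sample each, was measured on Agilent mouse arrays of 1 colour, from 0.1 µg of RNA per the labels' protocols. Per the file headers, the scans were processed by Agilent Feature Extraction 10.10.1.1 on a design annotated on mm9. The deposited scanner files hold an intensity per spot; the processed signal is that intensity after background subtraction and detrending by the scanner software, per the file headers, with no scaling between arrays. The deposited flags per spot are not measurements. The deposited value table holds the same intensity times 1 factor per array, 1.53 for HES1 and 1.45 for GFP.

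Processed signals were divided by their 75th percentile per array, taken over 59305 spots that are not controls, and put on a log2 scale; signals are printed with that percentile set to 1057.2. Outlier spots on either array (1053) were left out and 0 spots were saturated. Spots of a probe were averaged, leaving 54948 probes, of which 26869 had 1 symbol through a RefSeq table of GRCm38.p6. A gene took the value of its brightest detected probe, where detected means flagged well above background on 1 array or both (14273 genes; 13073 on both). Of the 22 probed members of the list of STAT3-responsive genes, 18 were measured; Junb was left out by its outlier flag. For a gene detected on 1 array, the fold is a lower bound: the undetected signal was raised, where lower, to the least detected signal of its array (39.0 for HES1, 38.1 for GFP). The error is the scanner's error model per spot, averaged over the spots of a probe and combined for both arrays, with a median of 0.20 over genes. Precision is limited by the number of arrays. The steps from signals to 2-fold calls were tested on a copy of the GFP array, with known changes past 2-fold put into detected probes. Changes close to 2-fold and genes detected on 1 array only were not part of that test.

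Named genes were the 10 members, the other listed family genes, up to 4 genes per pathway list past 2-fold or the largest, Hes1, and the 5 nearest to Il6. Il4ra, Vegfa, Socs3, Jak1, Jak2, Tyk2, Rela, Nfkb1, Nfkbiz, Saa3, Lbp, Lcn2, Hp, Adam17 and the named markers were chosen after their values were seen. Of the listed genes, 1 other family gene and 1 STAT gene are not reported here, and the counts and medians of their lists leave them out. The members and lists were chosen with earlier results of these data known. Alternatives were quantile, median and loess (span 0.3) scaling, normexp (offset 50, limma 3.58.1) on median spot signals, since mean spot signals are not held in the files used here, the deposited values, other filters and thresholds of 1.5-fold and 3-fold.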

Additional observations from a re-analysis of the deposited data

How the results depend on the processing

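With 1 array per group the results carry technical error only. No paired analysis was possible because each group holds 1 sample. Over the alternatives run, Il6 ranged from 6.40 to 7.96 on the log2 scale, Il11 from 0.47 to 1.15, Clcf1 from 0.81 to 1.07, Il11ra1 from -0.92 to -0.78 and Lif from -0.13 to 0.08. A count is given here where it changed by over 1.5 times, and a log2 difference or median where it changed by more than its technical error. Keeping outlier spots changed 0 of 35 results by that much, though 6 STAT3-responsive genes were then higher (against 5). Using the deposited values also changed 0 of 35. That outcome was fixed in advance, since they are the same signals times 1 factor per array, with the same scaling. The loess fit shifted the median of all genes by 0.13. For the moves below the cause was not tested, except that a stricter or looser threshold, filter or bound changes which genes count.

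Under the normexp correction with quantile normalization Il6 was 6.40 and Il11 0.47, 1 family member was higher (against 2), the list of other family genes had 1 higher and a median of 0.19 (against 3 and 1.03), the STAT3-responsive list 3 higher (against 5), the Il6 mRNA list 1 higher (against 3), and over all genes 850 were higher and 339 lower (against 1582 and 707). Quantile normalization alone gave 1 member higher. Quantile normalization, the loess fit and scaling by the median of the probes detected on both arrays each gave 2 of the kinases, STATs and adaptors higher (against 1). The loess fit gave 10 STAT3-responsive genes higher. Restricted to genes above background on both arrays, the other family genes had 1 higher and a median of 0.61, and all genes 920 higher. With genes on 1 array at their bound the other family genes had 1 higher and a median of 0.42. Without a filter on dim probes their median was 0.46 and 2 STAT3-responsive genes were lower. The median over a gene's probes gave 0 kinases, STATs and adaptors higher and a median of 0.68 for the other family genes.

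At 1.5-fold, 3 members were higher and 1 lower, 2 kinases, STATs and adaptors higher and 3 lower, and 3 feedback inhibitors higher. At that threshold 11 STAT3-responsive genes and 11 genes of the Il6 transcription list were higher, and 1 shedding gene was higher and 3 lower. Over all genes, 2480 were higher and 2084 lower. At 3-fold, 1 member, 0 kinases, STATs and adaptors and 2 STAT3-responsive genes were higher, 0 STAT3-responsive genes lower, and 997 of all genes higher and 178 lower. Signals near background limit what can be said of Lif, Ctf1, Ctf2, Osm and Il27ra, and undetected genes such as Osmr have no difference here. They also limit the sizes given for Il6 and Il11, whose GFP-line signals of 87.5 and 76.8 lay near that of Ctf1 (75.2).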
